A study of Homo sapiens with 4 samples.

Results

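The desmosome genes examined here are the 10 genes DSP, JUP, DSG2, DSG3, DSC2, DSC3, PKP2, PKP3, PKP4 and PERP, taken by symbol from the 19974 symbols of the expression tables of 4 RNA-seq libraries. All 10 were found, and 9 passed the filter for testing (at least 1 FPKM in at least 2 libraries, met by 11222 genes). FPKM is fragments scaled by transcript length and library depth, so that genes of 1 library can be set side by side. The cells were HCT116, a human colon cancer cell line. They received 100 nM of a non-targeting control siRNA (si-NC) or of an siRNA against the long non-coding RNA LINC00152 (si-152) for 36 h, and each group had 2 biological replicates. Both groups were the same line in the same medium with serum and differed in the siRNA. The level of LINC00152 itself was not analysed here.

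Desmosomes are spot-like junctions that anchor the intermediate filaments of neighbouring epithelial cells to each other. Their transmembrane cadherins, the desmogleins (DSG) and desmocollins (DSC), bind the cadherins of the next cell. Inside the cell the armadillo proteins plakoglobin (JUP) and the plakophilins (PKP) connect the cadherin tails to desmoplakin (DSP), a plakin that binds keratin filaments. Simple epithelia such as that of the intestine are known to use mainly DSG2 and DSC2, whereas DSG1, DSG3, DSC1 and PKP1 are typical of stratified epithelia such as skin.

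HCT116 cells in these libraries had 1 principal desmoglein, DSG2, and 1 principal desmocollin, DSC2, together with PKP3, PKP4 and PKP2, JUP, DSP and PERP. Between si-152 and si-NC none of the 9 tested members passed the main test, which did not pair the libraries, at an unadjusted p under 0.05. With same-numbered libraries as blocks in the limma fit, DSG2, DSC2 and PERP passed it, as did 16.9% of all tested genes. None of these 3 members passed adjustment over all genes. Among the paralog ratios compared, the groups stood farthest apart relative to their replicate spread for the desmocollins, in a design too small for the exact test to pass. The ratio of DSC2 to DSC3 FPKM was 4.67 and 4.78 under si-NC, and under si-152 it was 8.15 and 8.42. DSC3 was low, at 0.828 to 1.38 FPKM, near the 1 FPKM of the filter. In log2(FPKM + 1) the ratio differed by 0.57 between the groups.

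**Figure D1:**
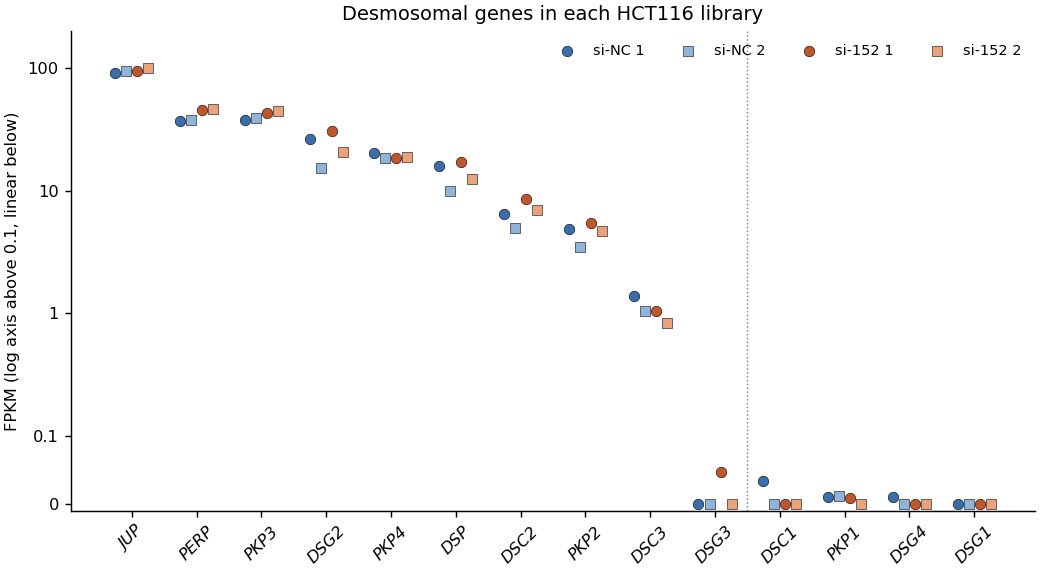
FPKM of the 10 desmosome genes (left of the dotted line, by mean level) and of the paralogs DSC1, PKP1, DSG4 and DSG1 (right) in each library, with 1 point per library; the vertical axis is logarithmic above 0.1 and linear below. JUP stood at 91.3 to 101 FPKM, and DSG3 and the paralogs on the right stayed below 0.05 FPKM in every library.

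Of the 9 markers of colon epithelium checked, EPCAM lay between 190.5 and 239.5 FPKM and CDX2 between 8.29 and 10.4 FPKM, while VIL1, CDX1 and LGALS4 were below 0.1 FPKM in all 4 libraries. The 9 markers summed to 3026 and 3529 FPKM under si-NC and to 2386 and 2972 FPKM under si-152, so that both si-152 libraries were below both si-NC libraries. Most of this sum came from KRT8, KRT18 and KRT19, and its part in the results was not tested. Markers of other cell types were low: the summed FPKM was 0.0353 to 0.0999 for 3 endothelial genes, 2.76 to 3.47 for 4 leukocyte genes (nearly all CD68, with PTPRC listed at 0) and 7.11 to 8.13 for 5 fibroblast genes (nearly all COL1A1, with DCN listed at 0). The 7 markers of stratified epithelium summed to 12.1 to 14.3 FPKM, of which KRT10 gave 11.9 to 14.0, and TP63, the factor that specifies those epithelia, did not exceed 0.0336. Summed FPKM differed between the libraries, from 424754 to 534311, and more between replicates 1 and 2 than between si-NC and si-152. Because these are bulk samples, fewer cells of a kind and less RNA per cell cannot be told apart.

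Among the desmogleins, DSG2 made up between 99.8% and 100% of the summed FPKM in each library. DSG2, the desmoglein found in all desmosome-bearing epithelia, was measured at 26.4 and 15.2 FPKM under si-NC and at 30.8 and 20.7 FPKM under si-152. DSG3, a desmoglein of stratified epithelia, had a value above 0 in 1 library alone, si-152 replicate 1, at 0.0464 FPKM. DSG1 was listed at 0 in all 4 libraries and DSG4 in 3 of them. Such values lie at the lower end of what the tables hold, so that no siRNA difference could be read for these genes.

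The desmocollins were lower than DSG2. DSC2, the desmocollin of simple epithelia, was at 6.44 and 5.01 FPKM under si-NC and at 8.51 and 6.97 FPKM under si-152. Both si-152 libraries thus lay above both si-NC libraries. DSC3, otherwise mainly a desmocollin of the basal layers of stratified epithelia, was at 1.38 and 1.05 FPKM under si-NC and at 1.04 and 0.828 FPKM under si-152. Here both si-152 libraries lay below both si-NC libraries, although si-NC replicate 2 and si-152 replicate 1 were nearly level. DSC1 was listed at 0 in 3 libraries and at 0.0344 FPKM in si-NC replicate 1.

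The cadherin genes sit side by side in the genome. All 7 desmoglein and desmocollin genes fall within 559 kb on chromosome 18 (chr18:30990008-31549008, GRCh38), with the desmocollins on the minus strand and the desmogleins on the plus strand. Within this cluster DSG3 (chr18:31447795-31478702) is the direct neighbour of DSG2 (chr18:31498043-31549008), and DSC3 (chr18:30990008-31042815) that of DSC2 (chr18:31058840-31102522). The annotated antisense gene DSG2-AS1 shares exonic bases with DSG2, and PKP4-AS1 does so with PKP4. Whether the reads were counted by strand is not given in the sources used here, so the levels of DSG2 and PKP4 may hold antisense reads.

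The 250 bases before the start sites of these neighbouring pairs are shown to compare the promoters of the expressed and the weakly expressed paralog. They are RefSeq sequences on GRCh38.p14, written in the direction of transcription, with capitals marking the E-box CAGGTG or its reverse complement CACCTG. They span chr18:31497927-31498176 for DSG2 and chr18:31447491-31447740 for DSG3 (plus strand), and chr18:31102422-31102671 for DSC2 and chr18:31042743-31042992 for DSC3 (minus strand).
DSG2: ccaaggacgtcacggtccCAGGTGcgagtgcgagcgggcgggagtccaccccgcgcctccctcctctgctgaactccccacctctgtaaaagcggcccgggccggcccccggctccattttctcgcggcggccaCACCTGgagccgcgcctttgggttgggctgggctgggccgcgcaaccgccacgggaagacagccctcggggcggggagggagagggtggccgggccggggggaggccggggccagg
DSG3: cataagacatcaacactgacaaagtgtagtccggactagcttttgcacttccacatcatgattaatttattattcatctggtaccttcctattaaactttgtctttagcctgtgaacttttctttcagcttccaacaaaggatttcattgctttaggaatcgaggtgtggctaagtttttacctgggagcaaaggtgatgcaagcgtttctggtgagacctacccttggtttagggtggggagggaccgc
DSC2: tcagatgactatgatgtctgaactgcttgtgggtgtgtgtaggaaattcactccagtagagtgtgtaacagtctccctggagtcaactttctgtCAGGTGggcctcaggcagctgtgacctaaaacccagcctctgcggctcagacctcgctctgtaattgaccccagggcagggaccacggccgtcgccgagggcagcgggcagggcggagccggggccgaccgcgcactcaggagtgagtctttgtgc
DSC3: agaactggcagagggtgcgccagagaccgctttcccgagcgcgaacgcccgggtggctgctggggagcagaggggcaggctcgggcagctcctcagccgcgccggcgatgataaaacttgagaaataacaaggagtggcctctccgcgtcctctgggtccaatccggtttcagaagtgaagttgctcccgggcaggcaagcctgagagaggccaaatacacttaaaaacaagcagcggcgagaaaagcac
DSG2 had 2 E-boxes, which began 232 and 116 bases before the start site, and DSC2 had 1, which began 156 bases before it. These distances are from the RefSeq start sites, which differ from the gene bounds given above, taken from GENCODE; the windows of DSG2, DSC2 and DSC3 reach into those genes as GENCODE bounds them. DSG3 and DSC3 had none, nor did a second DSC2 start site in the RefSeq table (chr18:31101261-31101510). DSG1, which was listed at 0 FPKM in all 4 libraries, did hold an E-box, so the motif did not separate the expressed paralogs from the others. The share of G and C was 75.2% for DSG2 and 42.8% for DSG3, whereas DSC2 (59.6%) and DSC3 (60.4%) were alike. Of the paralogs listed at or near 0 FPKM, DSG1 and DSC1 were at 48% and 52%, and PKP1 was at 67.6%.

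Promoters were found for 8 of the 10 members, and for PKP2 and PKP3 they were not analysed here. An E-box, a motif known to be bound by repressors of the SNAI and ZEB families, occurred on either strand in the promoter of 4 of the 8 (DSG2, DSC2, JUP and DSP), against 20.6% of the 27303 genes with a promoter sequence of that length. GC boxes (GGGCGGG), bound by SP and KLF factors, occurred in 5 of the 8 (DSG2, DSC2, PKP4, DSP and PERP) and in 35.3% of all genes. In these counts a gene held a motif if any of its listed start sites did. The GC box of DSC2 lay before its second start site, not in the sequence printed above. Another start site of JUP had no E-box. An AP-1 motif (TGANTCA) occurred in PERP and in no other member searched, 101 bases before the start site, and in 8.06% of all genes. No member held the grainyhead motif AACCNGTT (1.85% of all genes) or the TEAD motif GGAATG (14.3% of all genes) in this window. These matches describe letters and were not tested as binding sites.

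The plaque was led by plakoglobin. JUP, which binds the tails of both desmosomal and classical cadherins, was at 91.3 and 95.7 FPKM under si-NC and at 94.6 and 101 FPKM under si-152. It was the most abundant member and ranked 695 of the 11222 tested genes by mean level. JUP lay above CTNNB1, its relative in adherens junctions, in every library, with linear ratios of 1.33 and 1.46 in si-NC and 1.19 and 1.39 in si-152. DSP, which ties the plaque to keratin, was at 15.9 and 9.87 FPKM under si-NC and at 17.1 and 12.5 FPKM under si-152. The si-NC and si-152 values of both JUP and DSP overlapped. JUP exceeded DSP by a factor between 5.53 (si-152 replicate 1) and 9.69 (si-NC replicate 2).

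Among the plakophilins PKP3 was used most. PKP3, which is found in most epithelial desmosomes and binds nearly all of the other components, was at 37.4 and 39.4 FPKM under si-NC and at 43.3 and 45.1 FPKM under si-152, without overlap. PKP4, also known as p0071, which occurs at both desmosomes and adherens junctions, was at 20.5 and 18.7 FPKM under si-NC and at 18.5 and 18.8 FPKM under si-152. PKP2, the plakophilin of heart and simple epithelia, was at 4.88 and 3.50 FPKM under si-NC and at 5.43 and 4.72 FPKM under si-152. For PKP4 and PKP2 the groups overlapped. PKP1, the main plakophilin of the upper epidermis, did not exceed 0.0113 FPKM in any library.

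PERP, a tetraspan membrane protein of desmosomes, was at 36.9 and 37.9 FPKM under si-NC and at 45.2 and 46.6 FPKM under si-152. Both si-152 libraries were above both si-NC libraries, and the replicates of each group differed by little.

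By mean FPKM over the 4 libraries the order was JUP (95.6), PERP (41.7), PKP3 (41.3), DSG2 (23.3), PKP4 (19.1), DSP (13.8), DSC2 (6.73), PKP2 (4.63), DSC3 (1.08) and DSG3 (0.0116). The ranges over the libraries overlapped between PERP and PKP3, between DSG2 and PKP4, and between DSC2 and PKP2. Within each library DSC2 nevertheless lay above PKP2, whereas the order of PERP and PKP3 and that of DSG2 and PKP4 differed between libraries. The other neighbours in the order did not overlap.

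The replicates differed by more than the siRNA groups for several members. DSG2 was lower in replicate 2 than in replicate 1 by 0.76 in si-NC and 0.56 in si-152, as differences of log2(FPKM + 1), and DSP by 0.63 and 0.42. These differences exceeded those between si-152 and si-NC in either replicate. JUP, PKP3 and PERP moved by at most 0.09 between replicates. The replicate difference did not follow transcript length in every member: PKP2, of 4.30 kb, was at -0.39 and -0.17 in si-NC and si-152, PKP4, of 5.78 kb, was at -0.13 and 0.03, and DSC2, the longest at 12.3 kb, was at -0.31 and -0.25. Over the 9 tested members Spearman's correlation of the longest annotated coding transcript with the replicate difference was -0.73 in si-NC and -0.80 in si-152. Across the 10776 tested genes with an annotated length it was -0.59 and -0.63, a description across genes of the same libraries. The part of transcript length in any siRNA difference was not tested.

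**Figure D2:**
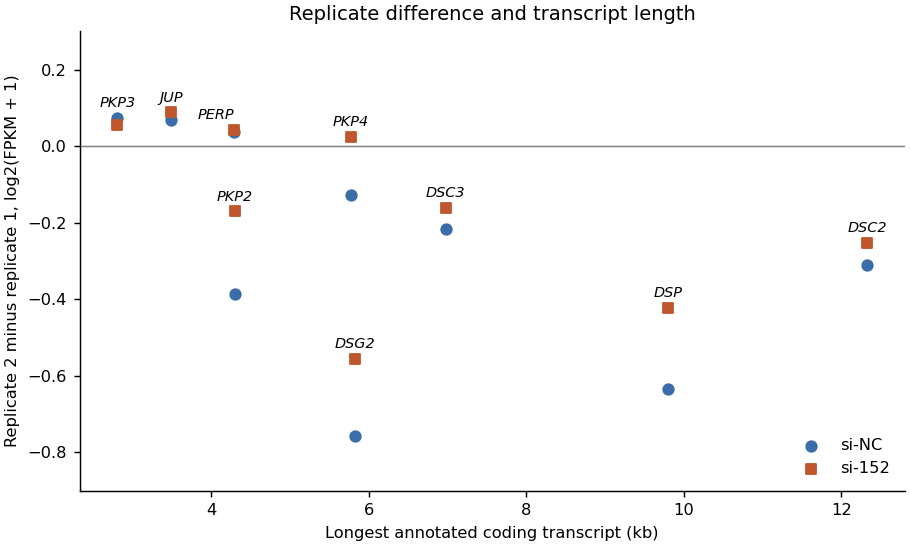
Difference between replicate 2 and replicate 1 in log2(FPKM + 1) against the length of the longest annotated coding transcript in kb, for the 9 tested members in si-NC (circles) and si-152 (squares). PKP3, JUP and PERP, of 2.81 to 4.29 kb, lay near 0, and DSG2 and DSP, of 5.83 and 9.80 kb, lay at -0.42 or lower in both groups.

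The comparison of si-152 with si-NC asks whether silencing of LINC00152 goes with another level of the desmosome genes. By limma's moderated test on log2(FPKM + 1), the fitted differences (si-152 minus si-NC, in log2) ran from -0.19 for DSC3 to 0.38 for DSC2, with a median of 0.21 over the 9 members and of 0.02 over all tested genes. Tested genes with transcripts of 5 kb or longer had median differences of 0.03 between the replicate 1 libraries and 0.13 between the replicate 2 libraries, and those under 2.5 kb had -0.11 and 0.000048. The part of this in the members' median was not tested. None of the 9 reached an unadjusted p under 0.05, whereas 1.89% of all tested genes did so with higher and 2.5% with lower values in si-152. None reached it together with a fold change above 1.5 (1.66% of all tested genes), and none an adjusted p under 0.05 (0.0178% of all tested genes). Adding 1 to the FPKM makes these differences smaller than those of the FPKM themselves for low genes such as DSC3.

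The largest fitted difference was that of DSC2, at 0.38 (standard error 0.20, 95% interval by limma -0.08 to 0.84). PERP followed DSG2 in size and had the narrower interval, at 0.29 (standard error 0.16, 95% interval -0.07 to 0.65). The mean FPKM of DSC2 was 35.2% higher and that of PERP 22.7% higher in si-152 than in si-NC. PKP3 was at 0.20 (standard error 0.16, 95% interval -0.16 to 0.56), with a mean FPKM that was 15.0% higher. All adjusted p-values of the members were 1.00 by limma. The intervals of DSC2 and PERP leave room for no difference as well as for differences of more than 1.5 times.

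For DSG2 and DSP the fitted difference changed sign when some single libraries were left out. DSG2 was at 0.32 (standard error 0.27, 95% interval -0.28 to 0.92). Without si-NC replicate 1 it was 0.70 and without si-152 replicate 2 it was 0.60. It was 0.04 without si-152 replicate 1 and -0.06 without si-NC replicate 2. DSP was at 0.21 (standard error 0.24, 95% interval -0.34 to 0.75). It was 0.53 without si-NC replicate 1, -0.11 without si-NC replicate 2 and -0.0036 without si-152 replicate 1. DSC2 stayed between 0.23 and 0.54 when each library was left out. PERP stayed between 0.27 and 0.31. When the filter on low values was left out, PERP was among 796 genes with an unadjusted p under 0.05 by limma. Its adjusted p by limma was then 0.977.

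Of the remaining members, PKP2 was at 0.24 (standard error 0.21, 95% interval -0.23 to 0.71) and JUP at 0.06 (standard error 0.17, 95% interval -0.32 to 0.44). PKP4 was at -0.06 (standard error 0.17, 95% interval -0.44 to 0.31). DSC3 was at -0.19 (standard error 0.21, 95% interval -0.65 to 0.27), and at -0.34 when 0.1 was added in place of 1. The mean FPKM of DSC3 in si-152 differed from that in si-NC by -22.9%.

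**Figure D3:**
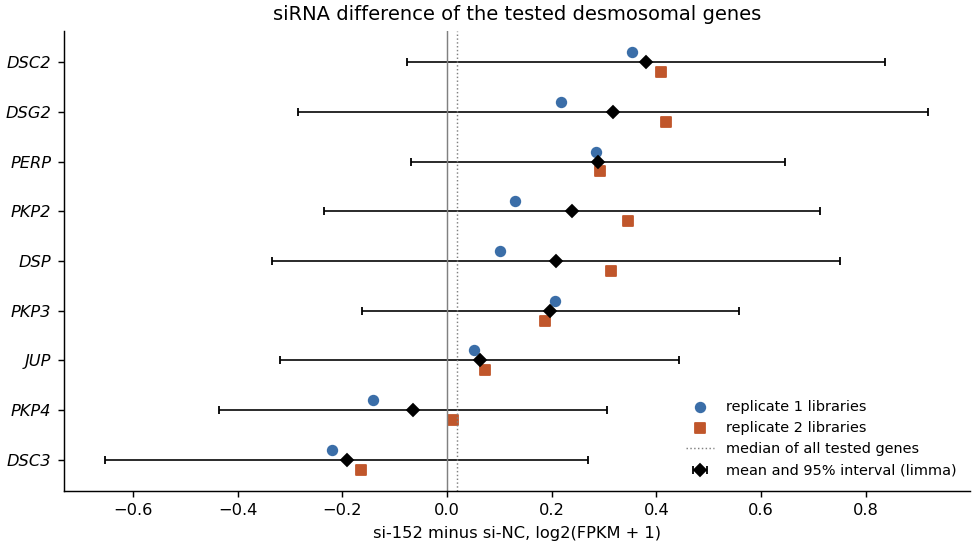
si-152 minus si-NC in log2(FPKM + 1) for each tested member: the diamond and bar give the limma estimate with its 95% interval, the circle the difference between the replicate 1 libraries and the square that between the replicate 2 libraries; the dotted line is the median of all tested genes. Every interval crosses 0, and the estimates run from -0.19 (DSC3) to 0.38 (DSC2).

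The libraries share replicate numbers across the groups, and the labels do not say that a number marks a shared day or culture. Taking the same-numbered libraries together, si-152 was above si-NC in both pairs for 7 of the 9 members (DSG2, DSC2, JUP, PKP2, PKP3, DSP and PERP), as it was for 35.6% of all tested genes. DSC3 was lower in both pairs, as were 27.3% of all tested genes. The differences in pairs 1 and 2 were 0.35 and 0.41 for DSC2, 0.22 and 0.42 for DSG2, and 0.29 and 0.29 for PERP. They were 0.21 and 0.19 for PKP3, 0.13 and 0.35 for PKP2, and 0.10 and 0.31 for DSP. PKP4 was at -0.14 and 0.01, DSC3 at -0.22 and -0.16, and JUP at 0.05 and 0.07. With median-ratio size factors JUP was at 0.09 and -0.0048, and PKP4 at -0.10 and -0.06. JUP was then no longer higher in both pairs, and PKP4 was lower in both. The shares of all tested genes under this scaling are not reported here.

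The groups did not overlap for 4 of the 9 members. Both si-152 libraries lay above both si-NC libraries for DSC2, PKP3 and PERP, an arrangement seen in 16.5% of all tested genes. They lay below for DSC3, as in 13.9% of all tested genes.

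Shares and ratios of FPKM within a library do not depend on its scaling (log2 ratios after adding 1 do so slightly for low genes), and so 4 shares and 10 log2 ratios of FPKM were compared between the groups by exact two-sided permutation tests. With 2 libraries against 2 the smallest possible p is 0.333, so none could pass the threshold. Adjusted over the 14 comparisons, every p was 0.848 or higher. In 5 of the 14 the groups did not overlap, 4 with si-152 above si-NC and 1 with si-152 below. Among all single genes tested, 16.5% lay above and 13.9% below in this way. The 5 were not separate results. The DSC2 share and the ratio of DSC2 to DSC3 rest on the same genes. The shares of PKP3 and PKP4 and the ratio of PKP3 to PKP4 likewise rest on shared genes.

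DSC2 made up 82.0% and 82.7% of the desmocollin FPKM under si-NC (82.3% ± 0.498, SD, n = 2) and 89.1% and 89.4% in si-152 (89.2% ± 0.225, SD, n = 2). The difference of 6.88 percentage points was larger than the spread between replicates, which was below 1 point in each group (exact permutation p = 0.333). In log2(FPKM + 1) the ratio of DSC2 to DSC3 differed by 0.57 in pair 1 and by 0.57 in pair 2. DSC2 and DSC3 moved together between the replicates, so their ratio varied less than either gene. The difference was 0.77 when 0.1 was added in place of 1, and 0.53 to 0.62 when each library was left out.

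PKP3 made up 59.6% and 64.0% of the plakophilin FPKM under si-NC and 64.4% and 65.7% in si-152. PKP4 made up 32.6% and 30.3% in si-NC and 27.5% and 27.5% in si-152. For both genes the groups did not overlap, at a difference of 3.25 percentage points for PKP3 and -4.00 for PKP4 (exact permutation p = 0.333 for each). PKP2 made up 7.76% and 5.67% in si-NC and 8.08% and 6.87% in si-152, with overlap. When PKP4, which is not confined to desmosomes, was left out, the PKP3 share was 88.5% and 91.8% in si-NC and 88.8% and 90.5% in si-152, and the groups overlapped.

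**Figure D4:**
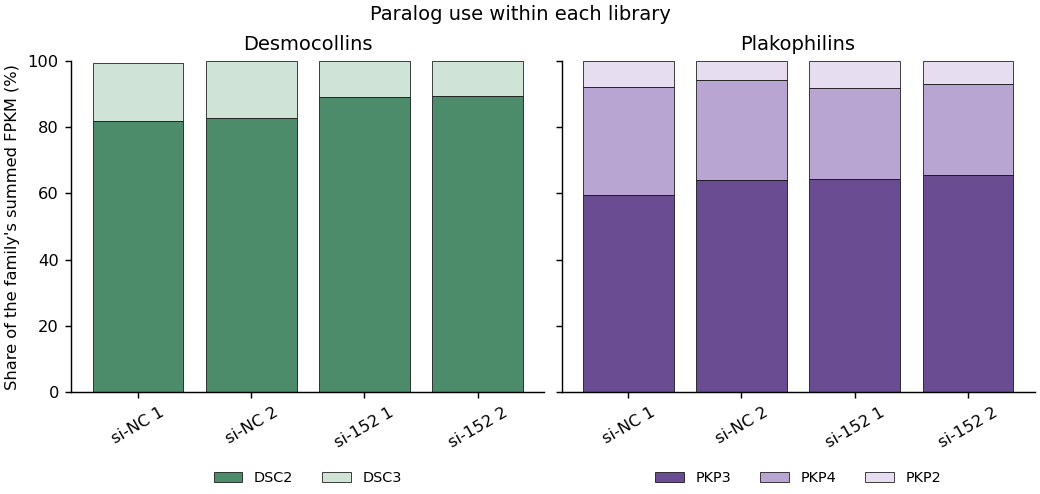
Share of each paralog in the summed FPKM of the desmocollins (left) and plakophilins (right), in percent, with 1 bar per library. DSC2 stood at 82.0% and 82.7% in si-NC and at 89.1% and 89.4% in si-152; DSC1 (0.438% of the desmocollins in si-NC replicate 1) and PKP1 are too low to be drawn.

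The other ratios overlapped between the groups, except that of PKP3 to PKP4 (log2 difference 0.26, exact permutation p = 0.333). DSG2 exceeded DSC2 by a factor of 4.09 and 3.04 in si-NC and of 3.62 and 2.96 in si-152. DSG2 was about level with CDH1, the classical E-cadherin, at ratios of 1.03 and 0.722 in si-NC and 1.22 and 0.999 in si-152. The ratio of DSP to KRT8, a keratin of simple epithelia, was 0.0152 and 0.00867 in si-NC and 0.0238 and 0.0137 in si-152. It differed by 0.65 and 0.63 in log2(FPKM + 1) in pairs 1 and 2, with overlap between the groups because replicate 2 was lower in each.

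The 3 tested genes whose pattern over the 4 libraries was closest to that of DSP, by the distance between log2(FPKM + 1) values centred on their means, were SOS2 (distance 0.0183), SOS1 (0.0283) and OSMR (0.0402). SOS2 was at 6.89 and 4.16 FPKM under si-NC and at 7.49 and 5.39 FPKM under si-152, low in replicate 2 like DSP. Of the members, DSG2 was closest to DSP (0.168, rank 362 among the tested genes) and JUP farthest (0.631).

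Genes that work beside the desmosome were examined as lists of related genes. The plakins and partners, which like DSP link filaments to junctions, had 7 tested genes, of which 0 had a limma p under 0.05; their median was -0.00065. PLEC, which binds keratin at hemidesmosomes, was at 105.4 and 66.8 FPKM under si-NC and at 103.5 and 88.3 FPKM under si-152. PNN, a nuclear protein first described at desmosomes, was at 74.3 and 51.0 FPKM under si-NC and at 62.8 and 60.3 FPKM under si-152. For both genes the groups overlapped.

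The adherens junction, which couples cells to actin rather than keratin, had 11 tested genes, 0 of them with a limma p under 0.05, and a median of 0.07. CTNNA1, the catenin that binds actin, was at 139.3 and 114.0 FPKM under si-NC and at 136.7 and 117.0 FPKM under si-152. CTNNB1, which binds the tail of CDH1, was at 68.7 and 65.3 FPKM under si-NC and at 79.4 and 72.3 FPKM under si-152. CDH1 differed by -0.02 (standard error 0.18, 95% interval -0.43 to 0.39).

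The keratins, the filaments that DSP anchors, had 6 tested genes. All 6 were lower in both pairs (27.3% of all tested genes), and 3 had a limma p under 0.05, all lower in si-152 (2.5% of all tested genes). The median was -0.50. KRT7, a keratin of simple epithelia, was at 74.4 and 90.4 FPKM under si-NC and at 46.8 and 62.4 FPKM under si-152. KRT80 was at 13.1 and 9.22 FPKM under si-NC and at 8.17 and 6.08 FPKM under si-152. KRT16, a keratin of stressed stratified epithelia, was at 2.27 and 2.79 FPKM under si-NC and at 1.15 and 0.949 FPKM under si-152. None of the 3 passed adjustment over all genes (adjusted p of 0.715 for KRT16 by limma). The abundant KRT8 was at 1046 and 1138 FPKM under si-NC and at 717.6 and 912.0 FPKM under si-152. KRT19 was at 1016 and 1378 FPKM under si-NC and at 877.1 and 1122 FPKM under si-152. Neither had an unadjusted p under 0.05 in the main limma fit. With the replicate block KRT8 had a limma p of 0.010 (adjusted p 0.165) and KRT19 of 0.081. Under that block 16.9% of all tested genes had an unadjusted p under 0.05.

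**Figure D5:**
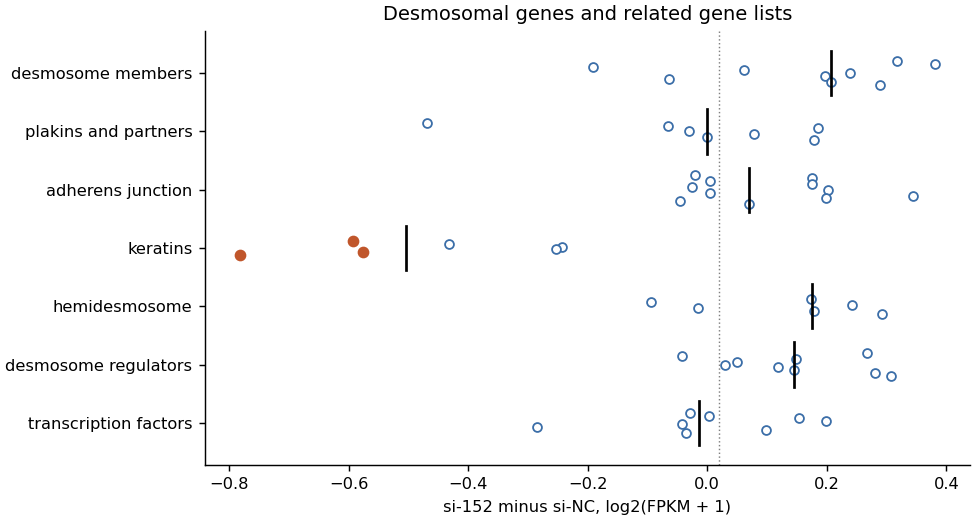
si-152 minus si-NC in log2(FPKM + 1) for each tested gene of the desmosome members and of 6 related lists; filled points have a limma p under 0.05, short black lines are medians and the dotted line is the median of all tested genes. The 3 filled points are KRT16, KRT7 and KRT80, and the desmosome members have a median of 0.21.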

How the data were processed

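Total RNA of HCT116 cells was sequenced in 4 libraries, 2 si-NC and 2 si-152, and the sample labels gave the groups. The authors deposited 1 table per library with a gene symbol and a value, and the submitters' processing notes name Trimmomatic, TopHat, HISAT2, HTSeq, DESeq and GRCh38. The deposited values were read as FPKM because they carry decimals and their sums differ between libraries. Absolute depth is unknown. From the lowest values, 1 fragment was worth 1.13 times as much in si-NC replicate 2 as in si-NC replicate 1, and 0.97 and 1.01 times in the si-152 libraries, so depths were close.

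Genes that reached 1 FPKM in 2 or more libraries were tested on log2(FPKM + 1) with limma 3.58.1 (R 4.3.3, mean-variance trend, two-sided), without scaling, and p-values were adjusted by Benjamini-Hochberg over all 11222 genes. The fit was run on simulated data with independent noise and with changes larger than those fitted for the members. That run left out the variation shared by same-numbered libraries, so it does not cover this design. A log2 difference on this scale understates the change of low genes. The limma p-values set each difference against the spread between these libraries, which were labelled as biological replicates. For each gene limma moderates that spread towards the trend over all tested genes. A listed 0 can be a failed estimate and was given only as listed. Shares and ratios were compared with exact permutation tests (scipy 1.17.1). Gene positions and lengths came from GENCODE on GRCh38 (longest coding transcript of the basic set), promoters from RefSeq on GRCh38.p14. Of the symbols, 28 were date-like and 2 were repeated.

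The members and lists were chosen with earlier results of these data known. Named genes were the members, their paralogs DSG1, DSG4, DSC1 and PKP1, the 2 genes with the highest mean FPKM and every gene with an unadjusted p under 0.05 in each list, the cell type markers, the genes CDH1 and CTNNB1 of the ratios, and the 3 genes nearest to DSP; PPL, AFDN and MAPK14 were named after their values were seen, and some genes that the rule would name are not reported here. Alternatives were another pseudocount, other filters, a replicate block, scaling by size factors or quantiles, no variance trend, and each library left out.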

Additional observations from a re-analysis of the deposited data

How the results depend on the processing

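The labels pair the libraries by replicate number and do not say what the number stands for. Across genes the deviations of same-numbered libraries correlated at 0.52, so these libraries shared part of their variation. The main fit counts that shared part as spread between replicates. With the replicate block the fitted differences of DSG2 (0.32), DSC2 (0.38) and PERP (0.29) were past an unadjusted p of 0.05 (3 of 9 members, limma). So were 1893 (16.9%) of all tested genes, and 78 were past an adjusted p of 0.05. The unadjusted threshold was also passed by 1 gene each of the plakin (PPL), adherens junction (AFDN) and regulator (MAPK14) lists. So it was by 1 gene of the hemidesmosome list and by 4 of the 6 tested keratins (KRT7, KRT8, KRT80 and KRT16). The adjusted p-values of the 3 members under the block were 0.213, 0.162 and 0.227. The block left the shares and ratios unchanged, since it averages the same differences.

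Without the filter on low values PERP (0.29) was the 1 member among 796 genes that passed an unadjusted p of 0.05 by limma. That setting kept every gene above 0 in any library, more than the 11222 of the main test. The share of its genes that passed is not reported here. The count of genes at an adjusted p under 0.05 was 2, and it was 1 with a pseudocount of 0.1, without the filter, with size factors, with quantile normalization and without the variance trend, and 0 with 1 FPKM in every library. Without PKP4 the difference in PKP3 share turned to -0.46 percentage points. With each library left out, DSG2 ranged from -0.060 to 0.70, DSP from -0.11 to 0.53 and DSC2 from 0.23 to 0.54. The number of members at an unadjusted p under 0.05 ranged from 0 to 3, that of all tested genes from 310 to 724 (242 to 546 with a fold above 1.5, and 45 to 78 by adjusted p), that of the plakins from 0 to 1 and that of the regulators from 0 to 3. The log2 ratios ranged from -0.29 to 0.16 for DSG2 to DSC2, -0.27 to 0.19 for PKP3 to PKP2, -0.50 to 0.21 for JUP to DSP, -0.16 to 0.67 for DSG2 to JUP and -0.37 to 0.34 for PKP3 to DSP, and the PKP2 share from -0.29 to 1.80 percentage points. The cause of these changes was not tested. Absolute depth is unknown, which limits what can be read from DSC3, at about 1 FPKM, and from DSG3, which was not tested.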

Other observations

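Hemidesmosomes anchor keratin to the basement membrane rather than to the neighbouring cell. Of their 6 tested genes 0 had a limma p under 0.05, and the median of the log2 differences between si-152 and si-NC was 0.18. CD151, a tetraspanin that binds laminin receptors, was at 152.8 and 169.0 FPKM under si-NC and at 181.9 and 198.9 FPKM under si-152, and both si-152 libraries were above both si-NC libraries. ITGB4, the integrin subunit of the hemidesmosome, was at 76.0 and 63.1 FPKM under si-NC and at 73.9 and 56.8 FPKM under si-152, with overlap.

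Among 9 tested genes for regulators of desmosome assembly and shedding, 0 had a limma p under 0.05 and 8 were higher in both pairs (35.6% of all tested genes), with a median of 0.14 against 0.02 for all tested genes. PRMT1, an arginine methyltransferase, was at 271.9 and 305.1 FPKM under si-NC and at 251.0 and 311.4 FPKM under si-152. ATP2A2, the calcium pump of the endoplasmic reticulum, was at 46.2 and 27.3 FPKM under si-NC and at 51.1 and 30.5 FPKM under si-152, and replicate 2 was the lower in both groups.

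The list of transcription factors known to act on epithelial junction genes had 8 tested genes, 0 of them with a limma p under 0.05, and a median of -0.01. SNAI1, a repressor that binds E-boxes, was at 6.15 and 5.99 FPKM under si-NC and at 5.84 and 5.90 FPKM under si-152.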
